A study of Mus musculus with 21 samples.

Results

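Oxidative phosphorylation is carried out by 5 multi-subunit complexes of the inner mitochondrial membrane, and the genes of their subunits were followed here in CD4+ T cells over the first 24 h after antigen. Members were every gene of the deposited rlog table (a log2-like transform of the counts) whose name begins as a structural subunit of complexes I to V, on either genome. This rule gave 91 members of 15249 genes, of which 83 are encoded in the nucleus and 8 on the mitochondrial chromosome (names beginning mt-). The rule also took in the pseudogene Atp5l-ps2, the retrocopies Ndufs6b and Cox6c2, the tissue-restricted isoforms Cox4i2, Cox6b2 and Cox7a1, and Cox7a2l, which joins complexes III and IV into supercomplexes. It left out Cyc1, the cytochrome c1 subunit of complex III, whose name does not match.

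All 21 libraries came from splenic CD4+ T cells of Tg4 Nr4a3-Tocky Il10-GFP mice (Tiger in the labels), with 3 mice in each of 7 groups. Every mouse, controls included, carries the Tg4 T cell receptor transgene, which recognises a myelin basic protein (MBP) peptide, the Nr4a3-Tocky reporter, whose Timer protein matures from blue to red fluorescence after receptor signalling, and the Il10-GFP reporter. Control mice were untreated, and the other 6 groups were given [4Y] MBP peptide under the skin, without adjuvant, at a dose of 0.8 µg or 80 µg, and were killed 4, 12 or 24 h later. The sort gate changed with time, taking Blue+Red- cells in the 4 h groups, Blue+Red+ cells in both 12 h groups and Blue-Red+ cells in those of 24 h, and time and gate cannot be told apart. The gate used for control cells is not given in the sources used here, and a comparison with the control joins peptide exposure with selection of reporter-positive cells. Mice of both sexes were used, and ages are not given in those sources.

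Complex I (NADH dehydrogenase) and complex II (succinate dehydrogenase) pass electrons to ubiquinone, complex III (the bc1 complex) passes them to cytochrome c, and complex IV (cytochrome c oxidase) passes them to oxygen. The proton gradient built by complexes I, III and IV drives complex V, the ATP synthase. Most subunits are nuclear-encoded and imported, whereas a small set of core subunits is made inside the organelle from mitochondrial DNA, and complex II has none of these. Naive T cells that meet antigen are known to enlarge their mitochondrial mass and to rebuild their metabolism before they divide.

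Libraries were made by 3′ mRNA sequencing and held 2352800 to 6244279 gene counts each. Replicate libraries of a group correlated at 0.958 to 0.979 across genes (log2 values). Gm42418, a ribosomal RNA-like gene, took 17.0% to 27.8% of the counts, and the mitochondrial ribosomal RNAs took 3.53% to 7.60%. The T cell list of 7 markers was detected in full in each library, at a summed 2500 to 2636 CPM (counts scaled to the library total) in controls and between 1023 and 2393 in immunised groups. The 6 B cell markers summed to 37.8 to 80.6 in controls and to 2.03 to 42.4 in the immunised groups, and Cd79a of this list had 0 counts in 17 of the 21 libraries. Myeloid (20.1 to 63.0), CD8 T cell (13.1 to 51.3) and erythroid (5.31 to 195) lists were low in all groups, and dendritic cell, NK cell and platelet lists stayed at or under 4.49 CPM. The B cell list was lower in most immunised libraries than in controls and the T cell list was lowest at 12 h after 0.8 µg. Their part in the results was not tested, and because each library is a bulk sample, fewer cells of a type and less RNA per cell cannot be told apart.

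Counts below are normalised counts (raw counts divided by the DESeq2 size factor of the library), and they are compared between groups for 1 gene and never between genes, because no length scale was applied. Changes are shrunken log2 fold changes ± SE from 1 DESeq2 fit to all 21 libraries (n = 3 mice per group), with Benjamini-Hochberg adjustment over all genes tested. A member rose or fell if its adjusted p was under 0.05 and is called over 2-fold where the absolute log2 change also exceeded 1, the threshold used in the study. Of the 91 members, 80 had a mean of at least 20 normalised counts, 73 nuclear and 7 mitochondrial. The remaining members were near the detection limit, among them the tissue isoforms. Cox4i2 had counts only in the 3 mice given 0.8 µg at 4 h (10.1, 1.32 and 6.47), Cox6b2 never exceeded 5.39 and Cox7a1 never exceeded 5.48.

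At 12 and 24 h most nuclear members were higher in the immunised groups than in the control, and at 4 h how many were depended on the scaling. At 4 h after 0.8 µg, 49 of the 80 nuclear members tested were higher and 7 lower, against 25.4% higher and 29.2% lower among all genes tested. At 12 h the same dose gave 63 higher and 2 lower of 80 (25.2% and 27.9% of all genes). At 24 h it gave 64 higher and 1 lower of 77 (20.8% and 15.2% of all genes). The 80 µg dose gave 48 higher and 9 lower of 80 at 4 h, where 26.3% of all genes were higher and 30.7% lower. It gave 62 higher and 1 lower of 82 at 12 h (25.3% and 27.4% of all genes). It gave 68 higher and 1 lower of 77 at 24 h (22.1% and 16.9% of all genes). With nuclear totals without Gm42418 as size factors, the 4 h counts became 40 higher and 12 lower after 0.8 µg, and 39 higher and 15 lower after 80 µg. In the counts from DESeq2 size factors, the share of members that rose was above the share of all genes that rose in each comparison, and the share that fell was below it.

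The median log2 change of the nuclear members against the control was 0.69, 1.19 and 1.00 at 4, 12 and 24 h after 0.8 µg, and 0.58, 1.16 and 1.13 after 80 µg. Over all genes tested the corresponding medians lay between -0.15 and 0.00. Changes over 2-fold were met by 26 of 88 members, both genomes counted, at 4 h after 0.8 µg (22 up and 4 down), against 40.7% of all genes. This was the case for 50 of 88 at 12 h (37.7% of all genes) and 39 of 85 at 24 h (17.3%). After 80 µg it was the case for 24 of 88 at 4 h (43.5% of all genes), 46 of 90 at 12 h (37.9%) and 48 of 85 at 24 h (20.2%). At 4 h, changes of the members over 2-fold were therefore less frequent than those of all genes, and at 24 h more frequent.

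**Figure D1:**
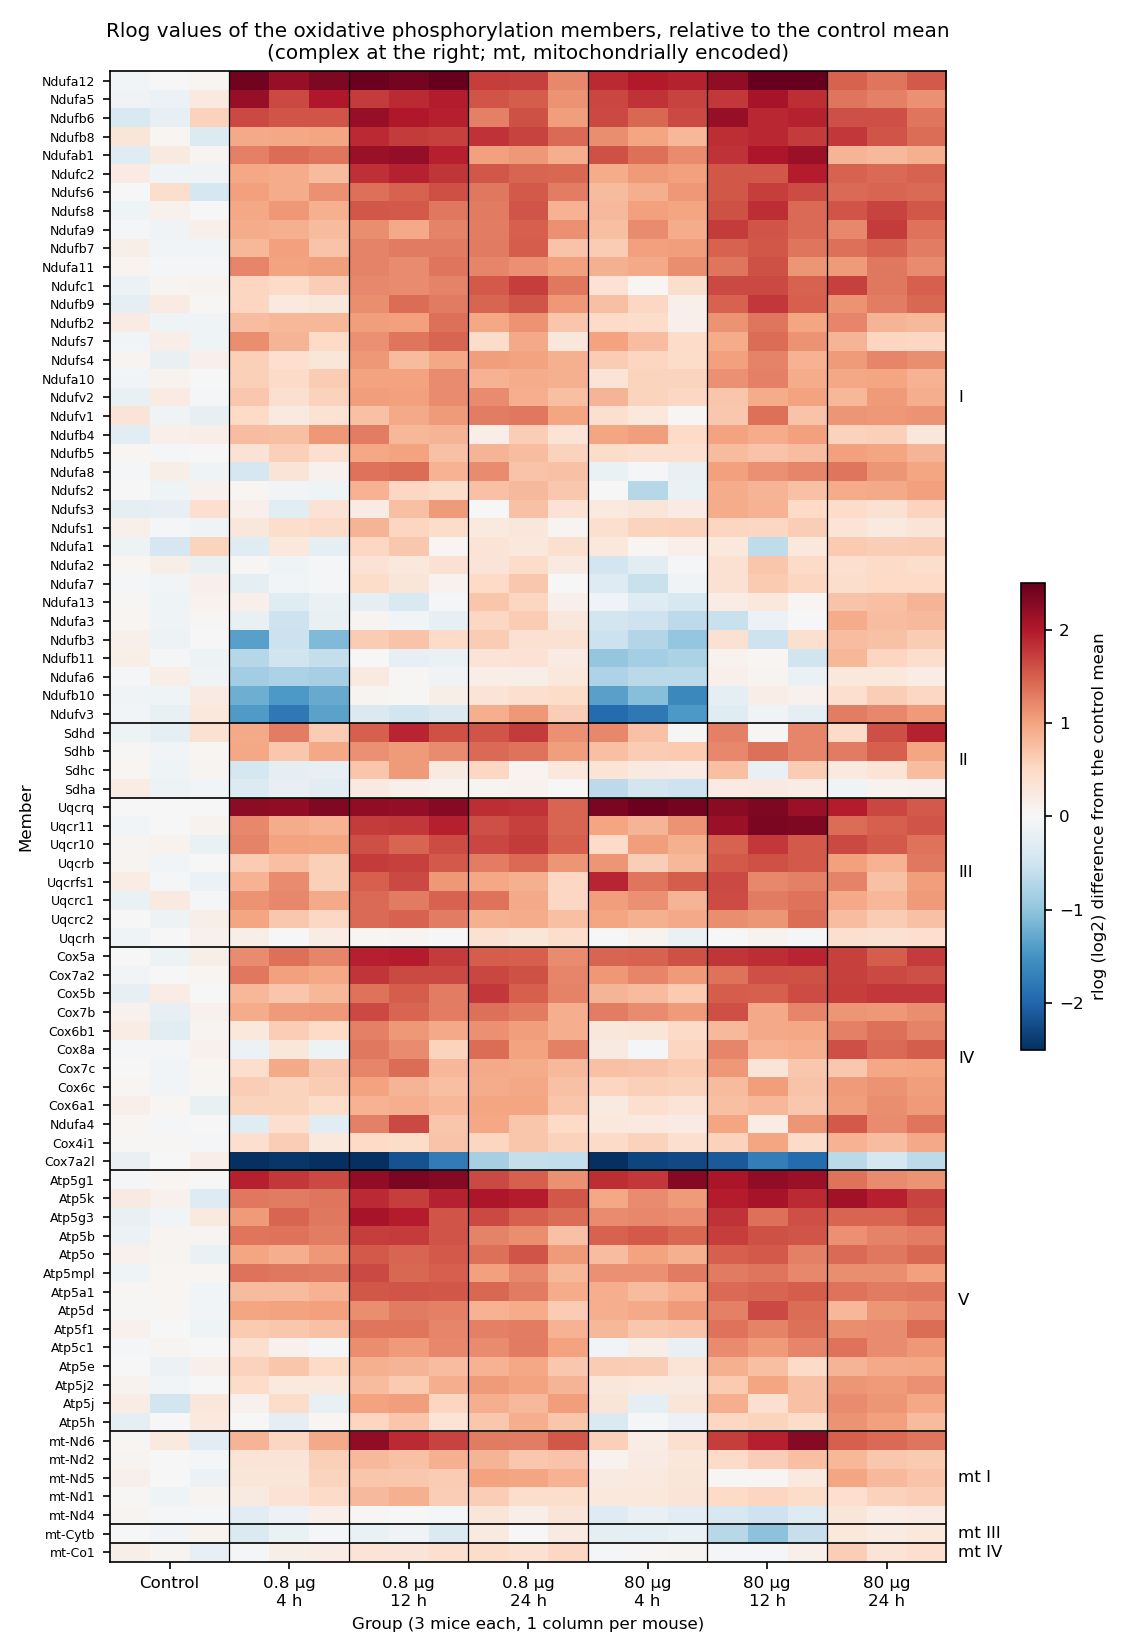
The map shows the deposited rlog value of each of the 80 members averaging at least 20 normalised counts in each of the 21 mice, as the difference from the mean of the 3 control mice (colour bar, log2 units, clipped at both ends). Rows are grouped by complex, nuclear members first. Most nuclear rows are red after immunisation, Cox7a2l is blue in all 18 immunised mice, and Ndufb10, Ndufv3, Ndufb3, Ndufb11 and Ndufa6 are blue at 4 h.

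The comparisons with the control share the 3 control mice, so those of the 2 doses are set side by side and are not independent of each other. The nuclear members that fell at 4 h after 0.8 µg were Ndufa6, Ndufb10, Ndufb11, Ndufb3 and Ndufv3 of complex I, Sdha of complex II and Cox7a2l. After 80 µg they were these 7 with Ndufa3 and Ndufa2, the last at -0.27 ± 0.12 (adjusted p = 0.0495, DESeq2). At 12 h Cox7a2l fell at either dose, as did Ndufv3 after 0.8 µg (-0.42 ± 0.18, adjusted p = 0.038), and at 24 h Cox7a2l was the 1 nuclear member that fell at each dose.

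Complex I takes electrons from NADH and is the largest complex of the respiratory chain. Of its 36 nuclear members tested at 4 h after 0.8 µg, 20 were higher and 5 lower (median 0.52), and after 80 µg 19 were higher and 7 lower (median 0.50). At 12 h, 28 of 36 were higher and 1 lower after 0.8 µg (median 1.09), and 28 of 37 higher and 0 lower after 80 µg (median 1.14). At 24 h, 28 and 32 of 36 were higher, with 0 lower (medians 0.95 and 1.00). The members that fell at 4 h were accessory subunits. None of the 7 nuclear core subunits, which hold the flavin and iron-sulphur centres, fell at 4 h at either dose, and 4 of the 7 rose at each dose.

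Ndufa12, an accessory subunit of the peripheral arm, had 140, 149 and 153 normalised counts in control mice and 826, 699 and 783 at 4 h after 0.8 µg. It had 849, 818 and 1099 at 12 h and 508, 504 and 351 at 24 h after the same dose. After 80 µg the counts of Ndufa12 were 560, 613 and 587 at 4 h, 716, 880 and 881 at 12 h, and 425, 387 and 443 at 24 h. No immunised mouse overlapped the controls. The log2 change at 12 h after 0.8 µg was 2.63 ± 0.15 (adjusted p = 9.4e-68, DESeq2), a 6.19-fold rise, and the other 5 comparisons lay between 1.50 and 2.47. Gm15920, a sequence matching the end of the Ndufa12 transcript, could share its reads.

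Ndufa5, another peripheral-arm accessory subunit, had 118, 114 and 150 normalised counts in control mice and 600, 418 and 531 at 4 h after 0.8 µg, a log2 change of 2.02 ± 0.16 (adjusted p = 1.8e-36, DESeq2). Ndufab1, which is the mitochondrial acyl carrier protein as well as a complex I subunit, had 64.9, 96.3 and 85.7 in controls. It had 391, 403 and 336 at 12 h after 0.8 µg and 304, 354 and 394 at 12 h after 80 µg. By 24 h its counts were 173, 180 and 160 at the low dose and 152, 149 and 157 at the high dose, so Ndufab1 was highest at 12 h at either dose. From 12 to 24 h it fell by 1.13 ± 0.15 on the log2 scale after 0.8 µg (adjusted p = 2.2e-13, DESeq2) and by 1.19 ± 0.15 after 80 µg (adjusted p = 5.1e-15).

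Ndufb10, an accessory subunit of the membrane arm, had 138, 137 and 173 normalised counts in control mice. At 4 h it had 59.6, 50.1 and 57.2 after 0.8 µg and 53.2, 66.8 and 43.7 after 80 µg. At 24 h it had 191, 202 and 208 after 0.8 µg and 202, 233 and 216 after 80 µg. The 4 h mice were all under the controls and the 24 h mice all above them. The log2 change of Ndufb10 at 4 h was -1.39 ± 0.20 (adjusted p = 6.3e-12, DESeq2) after 0.8 µg and -1.43 ± 0.19 (adjusted p = 5.3e-13) after 80 µg. At 24 h it was 0.43 ± 0.17 (adjusted p = 0.032) and 0.55 ± 0.17 (adjusted p = 0.0037).

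Ndufv3, an accessory subunit of the NADH-binding module, followed a like course. It had 153, 139 and 194 normalised counts in controls, 55.5, 40.8 and 59.3 at 4 h after 0.8 µg, 123, 115 and 122 at 12 h, and 309, 352 and 251 at 24 h. After 80 µg the mice had 37.0, 41.6 and 54.9 at 4 h, 128, 150 and 134 at 12 h, and 408, 385 and 344 at 24 h. Ndufv3 therefore lay under the control range at 4 h and above it at 24 h at either dose. The level at 4 h after 0.8 µg was 3.03-fold lower than in controls (log2 change -1.60 ± 0.20, adjusted p = 2.5e-14, DESeq2), and the log2 change after 80 µg was -1.81 ± 0.20 (adjusted p = 4.4e-18). At 24 h the changes were 0.91 ± 0.17 (adjusted p = 8.7e-07) and 1.23 ± 0.17 (adjusted p = 6.1e-12).

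The other 3 accessory subunits that fell at 4 h at both doses changed less. Ndufb3 changed by -1.04 ± 0.23 (adjusted p = 2.2e-05, DESeq2) and -0.78 ± 0.22 (adjusted p = 0.0012) at 4 h, and Ndufb11 by -0.64 ± 0.17 and -0.92 ± 0.17. Ndufa6 had 390, 449 and 377 normalised counts in controls, 218, 231 and 222 at 4 h after 0.8 µg, and 233, 251 and 250 at 4 h after 80 µg. At 12 and 24 h Ndufa6 did not pass the test against the control at either dose. Ndufa3 was lower only in the 80 µg comparison at 4 h (-0.56 ± 0.15, adjusted p = 0.00032), where its change after 0.8 µg was -0.29 ± 0.15 (adjusted p = 0.077).

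Complex II is the enzyme that the respiratory chain shares with the tricarboxylic acid cycle, and its 4 subunits moved in different ways. Sdha, the flavoprotein, had 606, 486 and 505 normalised counts in controls, 414, 458 and 433 at 4 h after 0.8 µg, and 334, 381 and 367 at 4 h after 80 µg. It changed by -0.30 ± 0.10 (adjusted p = 0.0092, DESeq2) and -0.56 ± 0.10 (adjusted p = 2.4e-07) at 4 h and was not past the test at 12 or 24 h. Sdhb, the iron-sulphur subunit, had 230, 214 and 233 in controls and 449, 364 and 451 at 4 h after 0.8 µg. Sdhb rose in all 6 comparisons, by 0.70 to 1.32, so the 2 catalytic subunits moved in opposite directions at 4 h.

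Sdhc and Sdhd are the membrane anchors of complex II. Sdhc passed the test only at 12 h after 0.8 µg (0.74 ± 0.23, adjusted p = 0.0038, DESeq2), with 234, 310 and 168 normalised counts against 146, 132 and 148 in controls. Sdhd, counted at 11.3, 10.1 and 18.6 in controls, rose in 5 comparisons by 1.17 to 2.02. In the remaining one, 80 µg at 4 h, its change was 0.92 ± 0.47 (adjusted p = 0.08) with counts of 39.4, 26.1 and 13.7.

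Complex III hands electrons from ubiquinol to cytochrome c. Of its 8 nuclear members, 7 were higher at 4 and at 12 h and all 8 at 24 h, at either dose, with 0 lower. Their medians at 4, 12 and 24 h were 1.00, 1.53 and 1.16 after 0.8 µg and 1.00, 1.53 and 1.09 after 80 µg. Cyc1, left out by the name rule, rose by 1.53, 1.88 and 0.97 after 0.8 µg and by 1.71, 2.05 and 0.94 after 80 µg. Uqcrq, a small subunit encoded at chr11:53427922-53430831 on the reverse strand, had 283, 287 and 283 normalised counts in controls. It had 1391, 1369 and 1469 at 4 h, 1359, 1354 and 1425 at 12 h, and 1054, 1027 and 798 at 24 h after 0.8 µg. After 80 µg it had 1512, 1607 and 1541, then 1404, 1492 and 1312, then 1141, 924 and 849. Uqcrq had thus risen 4.93-fold by 4 h after 0.8 µg (log2 2.30 ± 0.11, adjusted p = 7.4e-88, DESeq2) and 5.43-fold after 80 µg (log2 2.44 ± 0.11, adjusted p = 1.2e-99), and its step from 4 to 12 h did not pass the test at either dose. From 12 to 24 h it changed by -0.52 ± 0.10 and -0.53 ± 0.10.

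Uqcrfs1, the Rieske iron-sulphur protein, had 159, 133 and 124 normalised counts in controls, 257, 323 and 213 at 4 h after 0.8 µg, and 542, 362 and 414 at 4 h after 80 µg. Both doses were above the control (0.91 ± 0.20 and 1.64 ± 0.20, adjusted p = 2.5e-05 and 2.0e-15, DESeq2). Uqcr11, a small subunit, had 52.6, 54.8 and 58.5 in controls, 204, 207 and 235 at 12 h after 0.8 µg, and 270, 318 and 311 at 12 h after 80 µg. Its log2 change at 12 h after 80 µg was 2.42 ± 0.18 (adjusted p = 2.3e-41). Gm16418 matches the end of the Uqcr11 transcript and could share its reads.

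Complex IV reduces oxygen. Of its nuclear members, 9 of 15 were higher and 1 lower at 4 h at either dose (medians 0.62 after 0.8 µg and 0.36 after 80 µg). At 12 h 11 of 15 were higher and 1 lower at either dose (medians 1.12 and 0.87), and at 24 h 11 of 12 were higher and 1 lower (medians 0.98 and 1.22). The member that fell each time was Cox7a2l. Cox5b, which carries a zinc site, had 142, 187 and 166 normalised counts in controls and 563, 584 and 582 at 24 h after 80 µg, a log2 change of 1.80 ± 0.14 (adjusted p = 8.0e-38, DESeq2). Cox8a, a small transmembrane subunit, rose at 12 and 24 h by 1.04 to 1.56, and its changes at 4 h were 0.02 ± 0.19 and 0.27 ± 0.19, which did not pass the test. Cox4i1, Cox6a1 and Cox6b1, the widely expressed isoforms of their subunits, each rose in all 6 comparisons, by 0.32 to 1.32.

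Cox7a2l (SCAF1), the factor that links complexes III and IV, was the complex IV member that fell. The gene lies at chr17:83501918-83517330 on the reverse strand (GRCm38). It had 515, 594 and 660 normalised counts in controls and 92.9, 101 and 91.7 at 4 h after 0.8 µg. The mice had 96.1, 122 and 167 at 12 h and 323, 383 and 376 at 24 h after that dose. After 80 µg they had 86.8, 111 and 115 at 4 h, 129, 169 and 146 at 12 h, and 364, 426 and 365 at 24 h. Each of the 18 immunised mice was below each control mouse. The 4 h level after 0.8 µg was 6.10-fold lower (log2 change -2.61 ± 0.18, adjusted p = 9.6e-49, DESeq2), and at 24 h after 80 µg the log2 change was -0.61 ± 0.16 (adjusted p = 0.00045). Between 12 and 24 h it rose by 1.49 ± 0.17 after 0.8 µg and by 1.37 ± 0.16 after 80 µg.

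Cox7a2, the paralogue of Cox7a2l that serves as the usual complex IV subunit, went up. It had 309, 327 and 334 normalised counts in controls, 823, 672 and 641 at 4 h after 0.8 µg, and 701, 763 and 685 at 4 h after 80 µg. Its log2 change was 1.14 ± 0.12 at 4 h at either dose (adjusted p = 3.0e-19 and 1.0e-19, DESeq2) and 1.54 to 1.73 at the later times.

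Complex V makes ATP. Of its 17 nuclear members tested at 4 h, 11 were higher after 0.8 µg and 12 after 80 µg, with 0 lower (medians 0.83 and 0.88). At 12 h 14 of 17 and 14 of 18 were higher (medians 1.26 and 1.24), and at 24 h 15 of 17 at either dose (medians 1.07 and 1.24), again with 0 lower. Of the 3 genes for the c subunit of the proton-driven ring, Atp5g1 had 47.4, 50.7 and 47.1 normalised counts in controls and 256, 279 and 268 at 12 h after 0.8 µg (log2 2.44 ± 0.20, adjusted p = 4.7e-33, DESeq2). Atp5g1 had fallen back to 168, 149 and 116 at 24 h, a step of -0.88 ± 0.17 (adjusted p = 1.1e-06), and to 136, 120 and 115 at 24 h after 80 µg. Atp5g3, which encodes the same mature c subunit, rose in all 6 comparisons by 1.19 to 1.89. Atp5g2 was counted at no more than 30.1 in any mouse, and Gm10175 matches the end of its transcript. Atp5k, the small membrane subunit e, had 311, 289 and 210 in controls and 1121, 1078 and 802 at 24 h after 0.8 µg (1.87 ± 0.14, adjusted p = 1.8e-39).

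**Figure D2:**
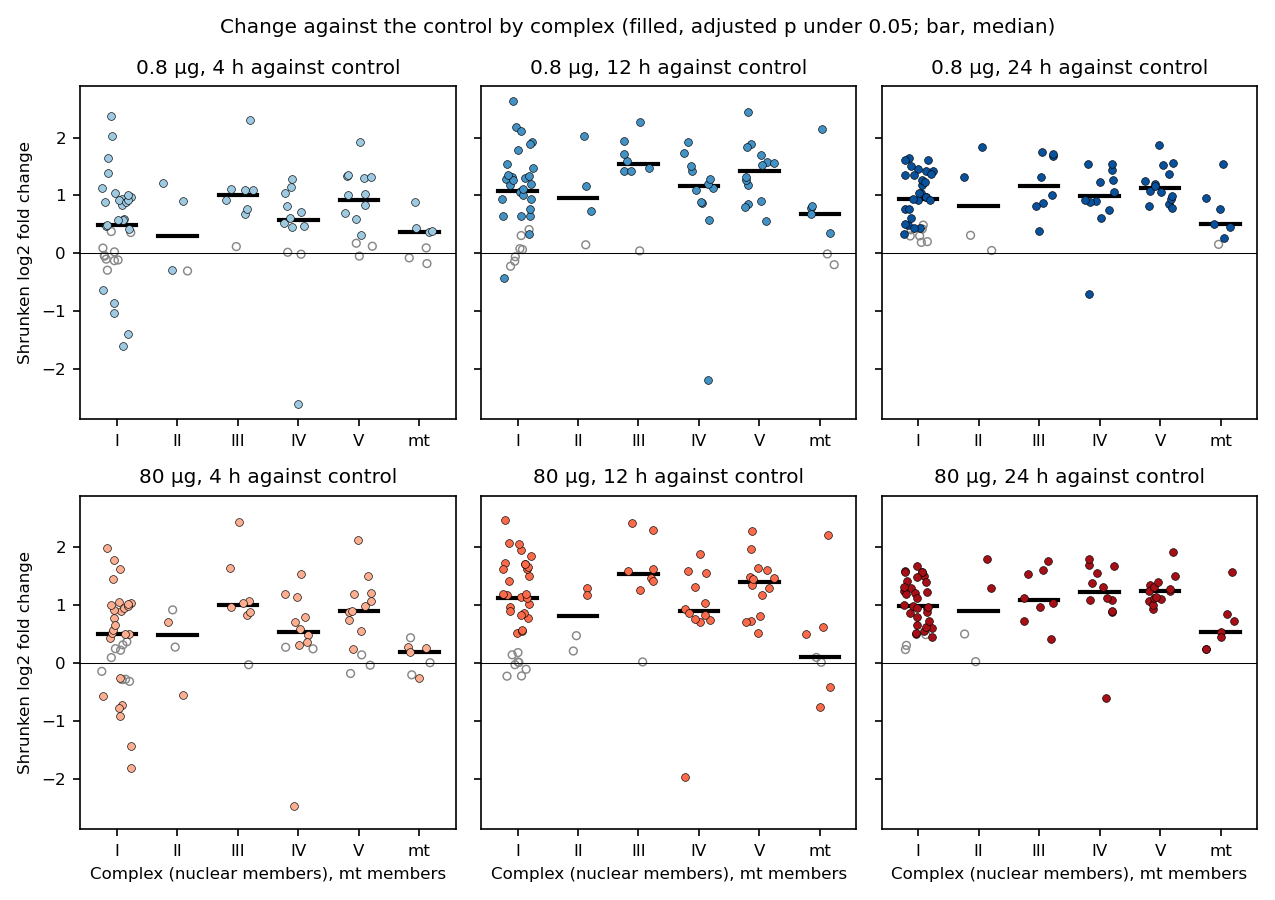
Each point is the shrunken log2 fold change of 1 member against the control, for members tested averaging at least 20 normalised counts, in nuclear complexes I to V and in the mitochondrially encoded (mt) members. Filled points had an adjusted p under 0.05, and bars are medians over the plotted members, which leave out the weakly counted ones. The lowest filled point of complex IV in each panel is Cox7a2l, at -2.61 at 4 h after 0.8 µg.

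The 8 mitochondrially encoded members encode core subunits of complex I (mt-Nd1 to mt-Nd6), cytochrome b of complex III (mt-Cytb) and the catalytic subunit of complex IV (mt-Co1). The other 5 protein-coding mitochondrial genes, mt-Co2, mt-Co3, mt-Atp6, mt-Atp8 and mt-Nd4l, had 0 counts in all 21 libraries. Chromosome 1 carries annotated copies of several of these genes. Gm28661 matches 681 bases of mt-Co2, Gm28437 783 bases of mt-Co3, Gm10925 678 bases of mt-Atp6 and Gm10222 294 bases of mt-Nd4l, each at 100% identity. For mt-Nd3, at chrM:9459-9806 on the forward strand, 67 counts were found in all and none in 10 of the 21 libraries, while its copy Gm28438, at chr1:24612775-24613119 on the reverse strand, had 572. These coordinates are those of GRCm38 (mm10). How far these copies set the counts was not tested. The 2 annotated transcripts were compared over 345 bases and differed by 1 substitution, T3C, counted from base 1 of the transcript with the mt-Nd3 base first. Their first 23 bases are shown to let the pair be compared, with the base that differs in capitals.
mt-Nd3: atTaacctgtacactgttatctt
Gm28438: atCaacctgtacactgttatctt

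The remaining copies cover parts of counted genes. Gm28439 matches 876 of the 1378 bases of mt-Nd4 at 100% identity, and Gm29216 matches 483 of the 1545 bases of mt-Co1 at 99.793%. Among nuclear members, 17 of 80 searched had another annotated gene that matched at least 100 of the last 300 transcript bases at 98% identity or more. For Ndufb2 and Ndufb8 the matching gene overlaps the member's own exons and is not a copy elsewhere. For all genes with a match reads could be split or discarded, and the strand setting of the counting is not given in the sources used here. By annotation, 34 members overlap an exon of another gene, among them mt-Nd5 and mt-Nd6, which lie on opposite strands.

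By their medians, the mitochondrial members rose less than the nuclear ones. Of 8 tested, 4, 5 and 6 were higher at 4, 12 and 24 h after 0.8 µg and 0 lower, with median changes of 0.37, 0.51 and 0.48. After 80 µg 4 were higher and 1 lower at 4 h (median 0.22), 3 higher and 2 lower at 12 h (median 0.05), and 7 higher and 0 lower at 24 h (median 0.50). Of all genes, 25.4%, 25.2% and 20.8% were higher after 0.8 µg, and 29.2%, 27.9% and 15.2% lower. After 80 µg 26.3%, 25.3% and 22.1% were higher, and 30.7%, 27.4% and 16.9% lower. At 12 h after 80 µg the mitochondrial counts were not far from these shares. One of the 4 higher at 4 h after 80 µg was mt-Nd3, a gene near the detection limit with raw counts of 13, 22 and 0 in that group and 2, 0 and 0 in controls (groups overlapping, adjusted p = 0.044, DESeq2), and this call was lost under 8 of 14 alternative settings. Each of these 6 medians was under the median of the nuclear members in the same comparison. The 4 h counts depended on the scaling: with library totals as size factors, 3 were higher and 2 lower after 0.8 µg, and 0 higher and 2 lower after 80 µg. With nuclear totals without Gm42418 as size factors the mitochondrial median after 80 µg changed sign, to -0.06 at 4 h and -0.08 at 12 h.

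mt-Nd1 had 10060, 9131 and 10290 normalised counts in controls. It had 11543, 12574 and 13675 at 4 h, 17361, 18212 and 15154 at 12 h, and 15193, 13414 and 13414 at 24 h after 0.8 µg. After 80 µg it had 11730, 11873 and 12217, then 13850, 14290 and 13462, then 13112, 14679 and 15160. mt-Nd1 and mt-Nd2 were the mitochondrial members higher in all 6 comparisons, mt-Nd1 by 0.28 to 0.78 and mt-Nd2 by 0.19 to 0.82, and no immunised mouse had fewer mt-Nd1 counts than a control mouse. With nuclear totals without Gm42418 as size factors the changes at 4 h after 80 µg turned to -0.0037 for mt-Nd1 and -0.09 for mt-Nd2, neither past the test.

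mt-Nd6, the gene of this set on the opposite strand, had 26.8, 32.5 and 20.0 normalised counts in controls, 150, 115 and 101 at 12 h after 0.8 µg, and 104, 122 and 158 at 12 h after 80 µg. Its change at 12 h was 2.14 ± 0.27 and 2.21 ± 0.26 (adjusted p = 7.9e-15 and 7.8e-16, DESeq2), and at 24 h 1.54 ± 0.27 and 1.58 ± 0.27. mt-Nd6 lies across the end of mt-Nd5 on the other strand, and reads of the 2 genes cannot be told apart if strand was not used.

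mt-Cytb went the other way at 12 h after 80 µg. It had 8792, 8431 and 9395 normalised counts in controls and 5436, 4353 and 5954 in that group, a change of -0.76 ± 0.10 (adjusted p = 6.9e-13, DESeq2). At 24 h after 80 µg it had 10627, 10191 and 10617 (0.24 ± 0.10, adjusted p = 0.047). mt-Nd4 was also lower at 12 h after 80 µg (-0.42 ± 0.08, adjusted p = 3.2e-06), with 7647, 7056 and 8145 against 10713, 9867 and 9922 in controls. Both had all 3 of these mice below all 3 controls. Values of the mitochondrial ribosomal RNAs are set beside these. mt-Rnr2 changed by -0.23, -0.54 and 0.46 at 4, 12 and 24 h after 0.8 µg and by -0.34, -0.67 and 0.48 after 80 µg. mt-Rnr1 changed by -0.47 and 0.44 at 12 and 24 h after 0.8 µg and by -0.39, -0.64 and 0.34 after 80 µg, and its change of -0.11 at 4 h after 0.8 µg (adjusted p = 0.34, DESeq2) did not pass the test. Between doses at 12 h, mt-Rnr1 differed by -0.17 ± 0.09 (adjusted p = 0.35) and mt-Rnr2 by -0.13 ± 0.08 (adjusted p = 0.49). At 4 h mt-Rnr1 was lower after 80 µg (-0.28 ± 0.09, adjusted p = 0.029).

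**Figure D3:**
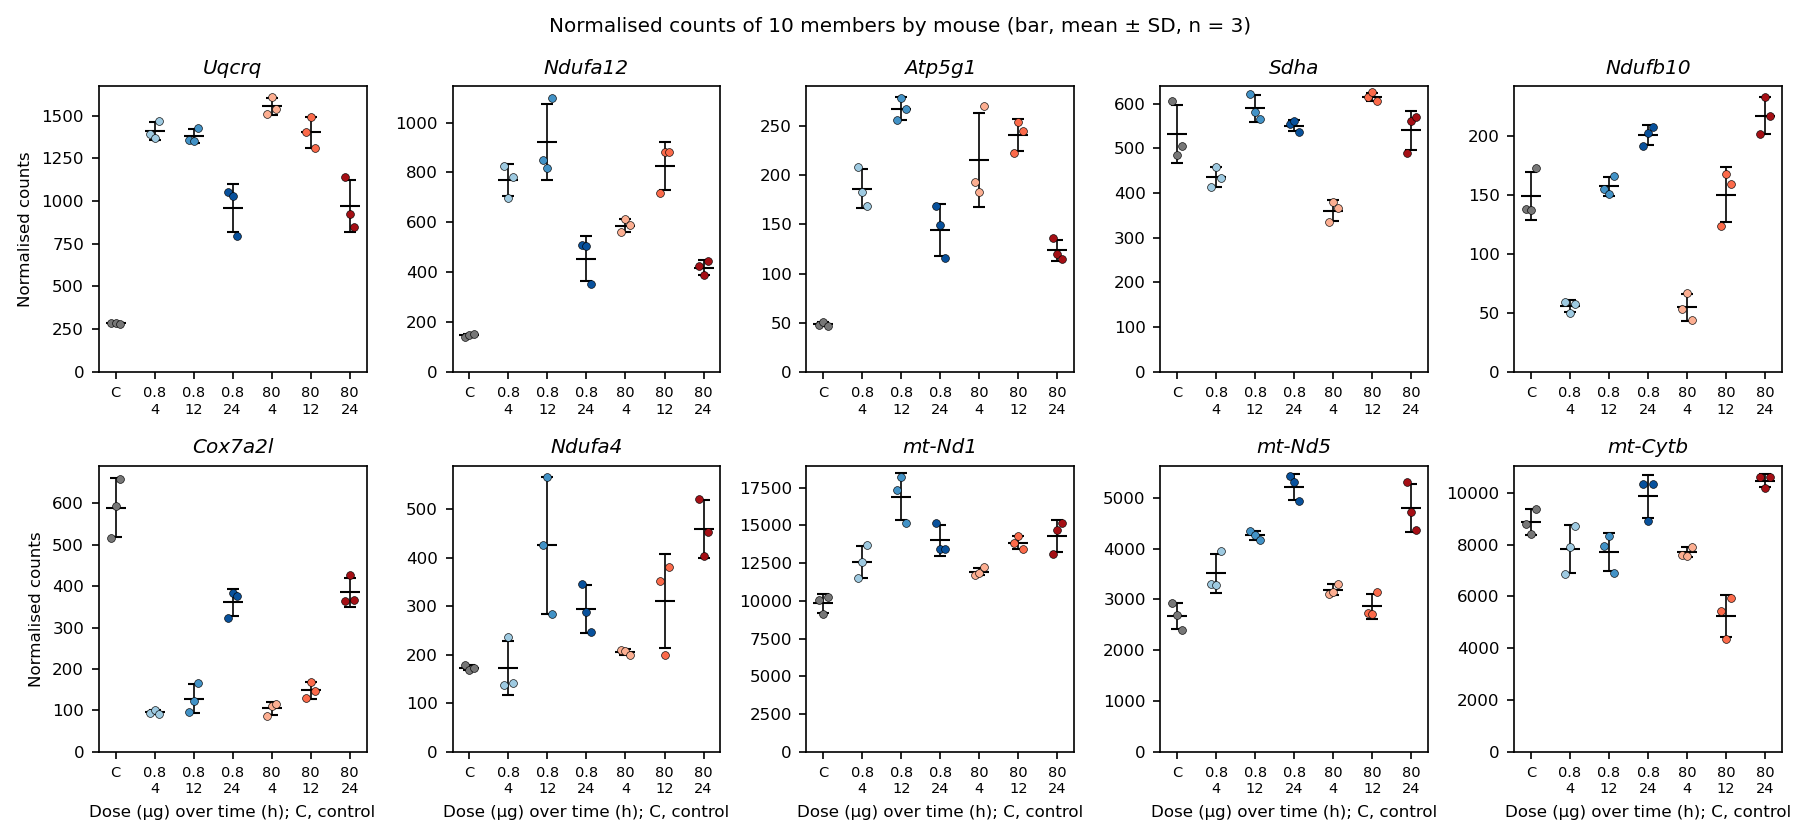
Normalised counts (linear axes from 0) of 10 members in each mouse, with the mean and SD of the 3 mice per group, against dose in µg over time in h (C, control). Uqcrq, Ndufa12 and Atp5g1 lie above the control in all immunised mice, Cox7a2l lies below it in all of them, Sdha and Ndufb10 dip at 4 h, and mt-Nd5 and mt-Cytb are lower at 12 h after 80 µg than after 0.8 µg.

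Summed over the members, the mitochondrial share of counts fell after immunisation. It was 71.6%, 70.4% and 70.4% in control mice and 60.7%, 62.1% and 65.7% at 4 h, 59.3%, 59.6% and 59.7% at 12 h, and 63.1%, 60.5% and 66.0% at 24 h after 0.8 µg. After 80 µg it was 59.9%, 60.8% and 61.8% at 4 h, 53.8%, 53.5% and 56.7% at 12 h, and 61.9%, 61.1% and 61.3% at 24 h. No immunised mouse reached the control range. The nuclear members took 0.561% of all counts in controls on average, 0.819%, 1.27% and 1.02% at 4, 12 and 24 h after 0.8 µg, and 0.808%, 1.21% and 1.02% after 80 µg. The mitochondrial members took 1.36% in controls, 1.39%, 1.87% and 1.75% after 0.8 µg, and 1.26%, 1.46% and 1.62% after 80 µg. The fall in the share thus went with a rise of the nuclear counts in each group. Between doses, the log2 ratio of mitochondrial to nuclear counts differed by -0.29 at 12 h as 80 µg minus 0.8 µg (pooled SD 0.073, groups not overlapping), -0.12 at 4 h and -0.11 at 24 h (pooled SDs 0.122 and 0.121). With medians over members in place of sums, the differences were -0.53 at 12 h, -0.04 at 4 h and -0.0008 at 24 h. These differences were given no test. The sums weigh each gene by its counts and leave out the 5 uncounted mitochondrial genes.

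**Figure D4:**
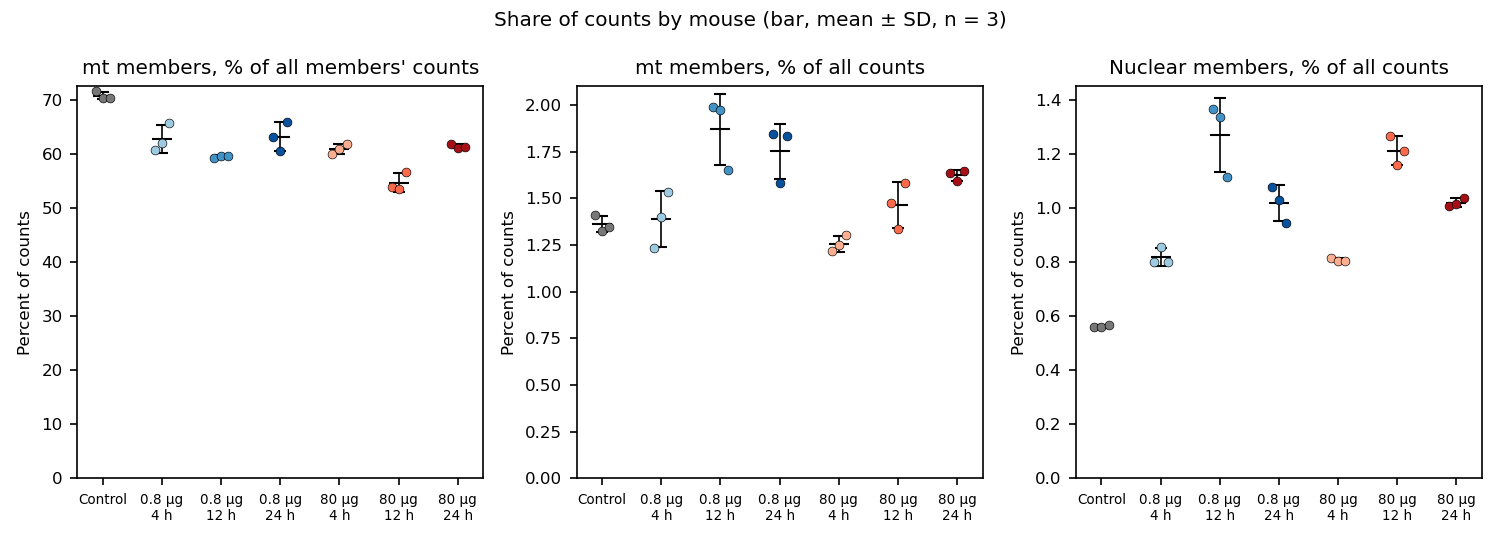
Left, counts of the mitochondrial (mt) members as a percentage of all members' counts; middle and right, mt and nuclear members as a percentage of all gene counts, each on its own linear axis from 0. Points are mice, bars are mean and SD of 3, and the left panel runs from 71.6% in a control mouse to 53.5% in a mouse at 12 h after 80 µg.

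Between 4 and 12 h most nuclear members tested rose, and fewer passed the test from 12 to 24 h. From 4 to 12 h after 0.8 µg, 53 of 77 nuclear members rose and 0 fell (median 0.51), against 20.9% higher and 18.2% lower of all genes. After 80 µg 54 of 77 rose and 0 fell (median 0.57; all genes 23.6% and 19.3%). From 12 to 24 h after 0.8 µg 7 of 77 rose and 21 fell (median -0.13; all genes 24.9% and 19.1%), and after 80 µg 16 of 78 rose and 14 fell (median -0.05; all genes 24.9% and 19.8%). The 12 to 24 h split after 80 µg moved with the scaling, to 5 higher and 32 lower with library totals as size factors. Steps over 2-fold were met by 10 of 85 members from 4 to 12 h at either dose, against 20.5% of all genes after 0.8 µg and 24.8% after 80 µg. They were met by 4 of 85 from 12 to 24 h after 0.8 µg (26.6% of all genes) and 4 of 86 after 80 µg (27.2%).

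In the later step the complexes gave these counts. Of the 8 complex III members, 5 fell and 1 rose from 12 to 24 h at either dose (medians -0.41 and -0.48). Of the complex IV members 1 of 12 rose and 2 fell after 0.8 µg, and 6 of 13 rose and 0 fell after 80 µg. Of the complex V members 0 of 17 rose and 6 fell after 0.8 µg, and 2 rose and 3 fell after 80 µg, and none of the 4 complex II members passed the test. In complex I 5 of 36 rose and 8 fell after 0.8 µg, and 7 rose and 6 fell after 80 µg. Among the genes that rose late was Ndufa13 (GRIM-19), which went from 206, 184 and 234 normalised counts at 12 h after 0.8 µg to 400, 355 and 264 at 24 h (0.71 ± 0.16, adjusted p = 2.3e-05, DESeq2). Ndufa3 went from 201, 269 and 295 at 12 h after 80 µg to 577, 519 and 536 at 24 h (1.09 ± 0.14, adjusted p = 3.7e-14). Ndufc1 rose early, by 1.35 ± 0.15 from 4 to 12 h after 80 µg (adjusted p = 2.7e-17), from 131, 105 and 140 to 333, 333 and 296. The mitochondrial members, 8 in each step, rose in 5 cases and fell in 0 from 4 to 12 h after 0.8 µg, and rose in 3 and fell in 2 after 80 µg. Those 2 were mt-Cytb and the near-absent mt-Nd3, whose groups overlapped and whose call was lost under 6 of 14 alternative settings. From 12 to 24 h 3 rose and 2 fell after 0.8 µg, and 4 rose and 1 fell after 80 µg.

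The 100-fold range of peptide changed few of these genes. At 4 h, 1 of 76 nuclear members tested was higher after 80 µg than after 0.8 µg and 2 were lower, against 5.81% and 6.19% of all genes, and 0 of the 7 mitochondrial members passed the test. At 12 h 1 of 77 nuclear members was higher and 0 lower, and 5 of 7 mitochondrial members were lower and 0 higher, against 3.67% higher and 2.60% lower of all genes. Those 5 lie on the same strand of the mitochondrial chromosome and need not be independent of each other. At 24 h 0 of 74 nuclear and 0 of 7 mitochondrial members passed the DESeq2 test in either direction, against 3.73% and 2.20% of all genes. The edgeR quasi-likelihood test also gave 0 at 24 h, and 12 of the 74 nuclear members had an unadjusted p under 0.05, against 17% of all genes. Of these 12, 7 were in complex IV (12 tested, median 0.23, against 0.09 over the nuclear members). Changes over 2-fold between doses were met by 0 members at any time, against 5.85%, 2.79% and 1.56% of all genes at 4, 12 and 24 h. Over the 73 nuclear members with a mean of at least 20 counts, the log2 dose differences ran from -0.47 to 0.73 at 4 h, from -0.85 to 0.50 at 12 h and from -0.23 to 0.63 at 24 h, with median SEs of 0.146, 0.139 and 0.138.

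The 4 nuclear members that passed a dose test were these. Uqcrfs1 at 4 h was higher after 80 µg by 0.73 ± 0.19 (adjusted p = 0.0027, DESeq2; counts given above, groups not overlapping). Ndufb2, an accessory subunit of the membrane arm of complex I, had 233, 244 and 244 normalised counts at 4 h after 0.8 µg and 189, 187 and 147 after 80 µg (-0.47 ± 0.17, adjusted p = 0.049). Ndufa12 at 4 h differed by -0.39 ± 0.14 (adjusted p = 0.037), and Uqcr11 at 12 h by 0.48 ± 0.14 (adjusted p = 0.017). The 4 h calls depended on the fit and on single mice. Ndufb2 and Ndufa12 were lost with edgeR, with TMM factors and with the replicate block, which kept Uqcrfs1. With 0.8 µg replicate 3 or 80 µg replicate 1 left out, 0 members passed at 4 h.

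At 12 h, 5 of the 7 mitochondrial members were lower after the high dose. mt-Nd5 had 4353, 4266 and 4169 normalised counts after 0.8 µg and 2731, 2712 and 3144 after 80 µg (-0.57 ± 0.09, adjusted p = 2.2e-08, DESeq2). mt-Cytb had 7935, 8340 and 6900 after 0.8 µg and 5436, 4353 and 5954 after 80 µg (-0.56 ± 0.10, adjusted p = 3.7e-06). mt-Nd4 had 10307, 10096 and 9824 after 0.8 µg and 7647, 7056 and 8145 after 80 µg (-0.40 ± 0.08, adjusted p = 0.00011). In these 3 genes, as in mt-Co1 (-0.34 ± 0.09, adjusted p = 0.0068) and mt-Nd1 (-0.29 ± 0.08, adjusted p = 0.01), every 80 µg mouse was below every 0.8 µg mouse. mt-Nd2 differed by -0.20 ± 0.09 (adjusted p = 0.19) and mt-Nd6 by 0.07 ± 0.22 (adjusted p = 0.94). The calls for mt-Cytb, mt-Nd4 and mt-Nd5 were lost under 0 of 14 alternative settings, that for mt-Co1 under 1 and that for mt-Nd1 under 4. The mitochondrial rRNA share of counts in these libraries averaged 4.15% ± 0.16 (SD, n = 3) after 0.8 µg and 3.70% ± 0.21 after 80 µg, and its part in the result was not tested. The T cell marker list summed to 1023 to 1054 CPM after 0.8 µg and 1228 to 1310 after 80 µg in these libraries, and the CD8 T cell list (Cd8a and Cd8b1) to 43.6 to 51.3 and 13.1 to 22.7, so that both lists separated the doses. The myeloid, B cell and erythroid lists overlapped between doses, and the part of the lists in the result was not tested.

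**Figure D5:**
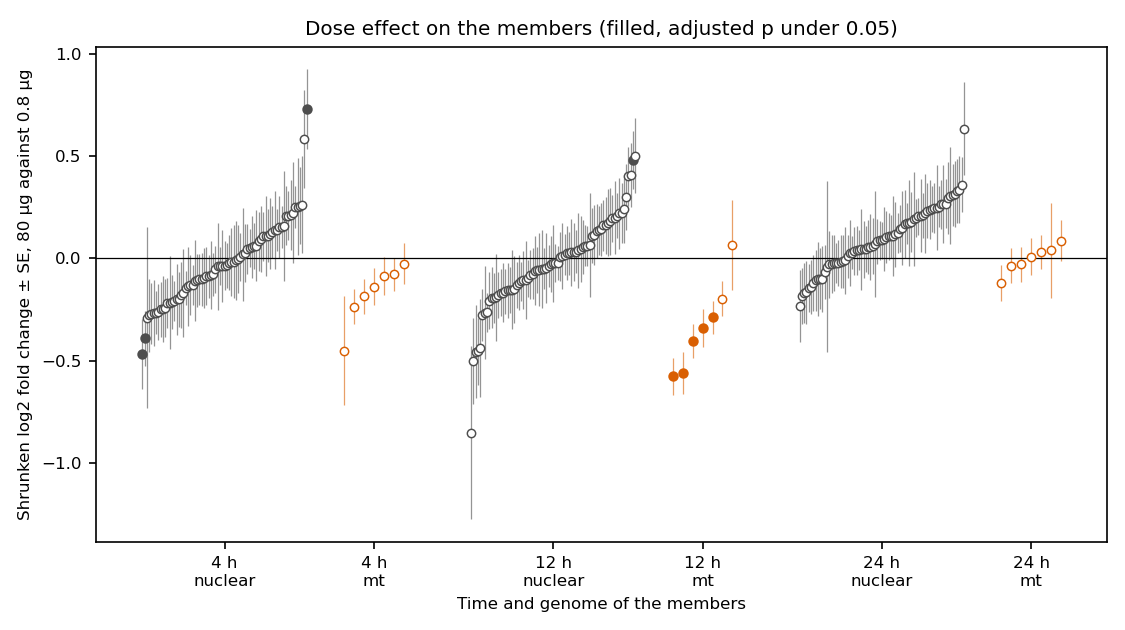
Each point is the shrunken log2 fold change of 80 µg against 0.8 µg for 1 member averaging at least 20 normalised counts (73 nuclear in grey, 7 mitochondrial in orange, each sorted by size), with its SE, at 4, 12 and 24 h. Filled points had an adjusted p under 0.05. The nuclear members lie on both sides of 0 at each time, with 52 of 73 above it at 24 h. Of the 7 mitochondrial members, 7 lie below 0 at 4 h, 6 at 12 h and 3 at 24 h.

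Whether the dose effect depended on time was tested with a likelihood ratio test of the dose by time interaction in the 18 immunised mice. It was past the threshold for 5 of 81 members, against 10.4% of all genes. mt-Cytb had dose effects of -0.02, -0.56 and 0.09 at 4, 12 and 24 h (adjusted p = 0.00076, DESeq2), and mt-Nd5 had -0.14, -0.57 and -0.12 (adjusted p = 0.0046). Ndufa4, named for complex I and now assigned to complex IV, had 0.26, -0.46 and 0.63 (adjusted p = 0.043). Its 12 h values spread widely, at 426, 566 and 284 normalised counts after 0.8 µg and 352, 200 and 381 after 80 µg. At 24 h it had 347, 287 and 248 after 0.8 µg and 522, 403 and 452 after 80 µg, without overlap. Ndufa3 had effects of -0.27, -0.17 and 0.36 (adjusted p = 0.043) and Cox6a1 -0.21, -0.11 and 0.20 (adjusted p = 0.044). mt-Cytb and mt-Nd5 passed under each alternative fit to all 18 mice, whereas the other 3 calls depended on the fit. With library totals, or nuclear totals without Gm42418, as size factors all 3 were lost and Ndufc1 and Uqcr11 passed instead. Ndufa3 and Cox6a1 were lost with edgeR, Ndufa3 and Ndufa4 with the replicate block, Cox6a1 with TMM factors, and Ndufa4 and Cox6a1 with a stricter filter on low counts. With replicate 1 or replicate 2 left out of every group, 0 members passed the interaction test, and with replicate 3 left out 4 passed.

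Genes that serve the same system were taken from lists made by role. The share of all genes higher at 4, 12 and 24 h was 25.4%, 25.2% and 20.8% after 0.8 µg and 26.3%, 25.3% and 22.1% after 80 µg, and the share lower was 29.2%, 27.9% and 15.2%, and 30.7%, 27.4% and 16.9%. Of the mitochondrial ribosomal proteins, which translate the mitochondrial members, 54 of 79 were higher and 3 lower at 4 h after 0.8 µg, 72 and 0 at 12 h, and 59 and 0 of 78 at 24 h. After 80 µg the counts were 59 and 4, 72 and 1, and 58 and 1. Their median at 12 h was 1.40 at either dose. Between doses, 3 of 75 ribosomal proteins tested were higher and 2 lower at 4 h (all genes 5.81% and 6.19%), 1 and 0 at 12 h (all genes 3.67% and 2.60%), and 2 and 0 at 24 h (all genes 3.73% and 2.20%). Mrpl33 was higher after 80 µg than after 0.8 µg at 4 h (0.51 ± 0.14, adjusted p = 0.0042, DESeq2) and at 24 h (0.41 ± 0.13, adjusted p = 0.031), and Mrpl48 was lower at 4 h (-0.75 ± 0.23, adjusted p = 0.012). Mrpl3 was also higher at 4 h (0.49 ± 0.14), Mrps12 at 12 h (0.56 ± 0.16) and Mrpl30 at 24 h (0.51 ± 0.13), and Mrpl4 was lower at 4 h (-0.63 ± 0.20). In the lists that follow, the dose test at 4, 12 and 24 h gave 2, 0 and 2 of 45 assembly factors, all lower. It gave 1, 1 and 0 of 18 cycle and pyruvate genes, lower, and 1, 0 and 0 of 25 genome expression genes and of 14 cytochrome c and coenzyme Q genes, higher. None of the 9 nuclear regulators passed it. Coq10b of the coenzyme Q list was higher after 80 µg at 4 h (0.99 ± 0.26, adjusted p = 0.0026, DESeq2). The assembly factor Cox10 was lower (-0.43 ± 0.13, adjusted p = 0.017) at that time.

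The assembly factors, which insert cofactors and join subunits, moved in both directions. Of 45, 18 were higher and 6 lower at 4 h after 0.8 µg, 26 and 4 at 12 h, and 13 and 1 at 24 h, and after 80 µg 18 and 8, 25 and 3, and 13 and 2. The counts higher at 24 h were not far from the share of all genes. Of 18 genes of the tricarboxylic acid cycle and pyruvate entry, 10 were higher and 1 lower, 15 and 0, and 11 and 0 after 0.8 µg, and 9 and 2, 14 and 0, and 13 and 0 after 80 µg. Mpc2, a subunit of the mitochondrial pyruvate carrier, was the member of that list past a dose test. It averaged 161 ± 8.5 normalised counts (SD, n = 3) at 4 h after 0.8 µg and 79.2 ± 10.7 after 80 µg (-1.02 ± 0.18, adjusted p = 4.3e-07, DESeq2), and at 12 h it differed by -0.50 ± 0.16 (adjusted p = 0.037). Sdhaf1, which helps insert the iron-sulphur clusters of complex II, was lower after 80 µg at 24 h (-0.68 ± 0.22, adjusted p = 0.038).

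Of 25 genes of mitochondrial genome expression, 16 were higher and 3 lower at 4 h after 0.8 µg, 16 and 1 at 12 h, and 9 and 1 at 24 h, and after 80 µg 15 and 2, 14 and 0, and 8 and 2. Tfam, the packaging and transcription factor of mitochondrial DNA, was past the test at 12 and 24 h, by 0.48 and 0.78 after 0.8 µg and by 0.53 and 0.87 after 80 µg. Gfm1, a mitochondrial elongation factor, was higher after 80 µg than after 0.8 µg at 4 h (0.81 ± 0.19, adjusted p = 0.0005, DESeq2). Of 15 cytochrome c and coenzyme Q genes, 8 were higher and 4 lower, 9 and 3, and 5 and 0 after 0.8 µg, and 8 and 3, 9 and 2, and 5 and 1 after 80 µg. That list includes Cyc1 of complex III. Cycs, cytochrome c itself, rose by 2.72, 2.68 and 1.76 at 4, 12 and 24 h after 0.8 µg and by 2.58, 2.66 and 1.64 after 80 µg. Of 9 nuclear regulators, 5 were higher and 1 lower, 4 and 2, and 1 and 2 after 0.8 µg, and 5 and 1, 3 and 2, and 0 and 2 after 80 µg. Myc, a general activator of growth genes, rose by 4.06 and 1.80 at 4 and 12 h after 0.8 µg and by 4.43 and 1.84 after 80 µg, and at 24 h its changes of -0.59 and -0.56 did not pass the test.

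The promoters of nuclear members were searched for 4 short motifs on both strands. RefSeq windows of 300 bases (250 before and 50 after the start, GRCm38.p6) were matched for 67 of the 83 nuclear members, giving 72 windows to set beside 32851 windows of all genes. The NRF1 core GCGCATGC, the motif of nuclear respiratory factor 1, was in 10 member windows (13.9%), against 2.71% of all windows. The YY1 motif AAGATGGC was in 10 (13.9%, against 2.75%), the ETS motif CCGGAAGT in 5 (6.94%, against 3.89%) and the E-box CACGTG in 7 (9.72%, against 7.15%). None of the 4 was in 43 of the member windows. A match is a description of the sequence and was not tied to binding.

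The 4 windows below, chosen after the values were seen, show a pair of members that rose in all 6 comparisons and a pair that rose in none. Whether a motif goes with the direction of change was not tested. Other members that rose in all 6 include some with an NRF1 core match (Sdhb, Atp5k) and some without one (Ndufa12, Atp5g1, Cox7a2). Uqcrc1, a core protein of complex III with 147, 195 and 160 normalised counts in controls and 461, 421 and 478 at 12 h after 0.8 µg, has the window chr9:108936398-108936697 on the forward strand. Cox6a1 had 560, 532 and 450 in controls and 945, 967 and 915 at 12 h after 0.8 µg, and its window is chr5:115348909-115349208 on the reverse strand. Each of these holds 2 NRF1 core matches, 1 on each strand and overlapping, in capitals. Ndufa6, described above, has 1 match on the opposite strand to the gene in chr15:82354242-82354541. Cox7a2l has none of the 4 motifs in chr17:83514284-83514583, a window at a RefSeq start that lies inside the GENCODE span of the gene.
Uqcrc1: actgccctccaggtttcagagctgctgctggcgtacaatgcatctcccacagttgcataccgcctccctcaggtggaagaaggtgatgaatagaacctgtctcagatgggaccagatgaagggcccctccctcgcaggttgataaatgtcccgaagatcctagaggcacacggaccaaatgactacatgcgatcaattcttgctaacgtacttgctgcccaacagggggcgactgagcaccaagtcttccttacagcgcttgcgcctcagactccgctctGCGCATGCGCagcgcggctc
Cox6a1: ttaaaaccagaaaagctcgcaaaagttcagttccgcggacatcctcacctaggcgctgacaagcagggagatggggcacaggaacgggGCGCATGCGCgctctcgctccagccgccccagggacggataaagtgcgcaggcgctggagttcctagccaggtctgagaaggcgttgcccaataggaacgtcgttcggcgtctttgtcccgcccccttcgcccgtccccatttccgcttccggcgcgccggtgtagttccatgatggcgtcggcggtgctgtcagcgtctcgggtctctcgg
Ndufa6: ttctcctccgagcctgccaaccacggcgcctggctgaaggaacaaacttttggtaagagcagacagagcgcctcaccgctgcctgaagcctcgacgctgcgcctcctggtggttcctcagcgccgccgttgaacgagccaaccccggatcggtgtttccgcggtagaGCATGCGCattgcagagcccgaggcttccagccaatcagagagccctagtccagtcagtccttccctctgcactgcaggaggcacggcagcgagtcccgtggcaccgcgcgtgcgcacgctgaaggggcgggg
Cox7a2l: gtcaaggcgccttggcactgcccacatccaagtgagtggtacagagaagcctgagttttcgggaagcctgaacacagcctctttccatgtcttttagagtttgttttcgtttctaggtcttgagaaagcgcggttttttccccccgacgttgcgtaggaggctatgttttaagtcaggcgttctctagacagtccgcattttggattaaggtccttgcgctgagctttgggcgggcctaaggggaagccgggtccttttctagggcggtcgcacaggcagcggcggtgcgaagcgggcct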

How the data were processed

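Splenic CD4+ T cells of 21 mice were measured by 3′ mRNA sequencing. Per the labels and methods, the authors trimmed reads, aligned them to mm10 with STAR 2.5.2a and counted them per gene with HTSeq, and they deposited raw counts and rlog (log2) values made by DESeq2. The annotation release, strand setting and use of molecular identifiers are not given in the sources used here. The methods were followed in keeping the 15300 of 47643 genes with at least 10 counts over all samples. DESeq2 1.42.0 (R 4.3.3) was then fitted once to the 21 libraries, with Wald tests, normal-prior shrinkage, Benjamini-Hochberg adjustment and independent filtering at 0.05, for 13 comparisons, and a likelihood ratio test was run for the interaction. The rlog values were used for the map alone. The code was tested on simulated data. Library totals, which set counting precision, are in the report. Copies were sought with BLAST in GENCODE transcripts.

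Groups followed the labels, and labels name biological triplicates. Members, lists and tests were chosen with earlier results of these data known. Named genes were the mitochondrial members, complex II, paralogue sets, up to 3 members each way per control comparison or time step and up to 5 per dose comparison with the largest change, a mean of at least 20 and no overlap, up to 5 interaction genes, and, from other lists, up to 2 each way per dose comparison. Cyc1, Cycs, Tfam, Myc and the mitochondrial rRNAs were also named. Uqcrc1, Ndufa2, Ndufa6 and Ndufb11 were added after their values were seen. Alternatives covered edgeR 4.0.16, other size factors, filters, a replicate block, the 6 samples compared, the threshold, and each mouse left out.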

Additional observations from a re-analysis of the deposited data

Results flagged for a closer look

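For 5 members the effect of dose differed between the times by the likelihood ratio test of the interaction (DESeq2, 18 mice, adjusted over all genes tested). These were 5 of 81 members tested, against 10.4% of all genes. mt-Cytb (adjusted p = 0.0007595) had log2 differences of 80 µg against 0.8 µg of -0.02 at 4 h, -0.56 at 12 h and 0.09 at 24 h. mt-Nd5 (adjusted p = 0.004629) had -0.14, -0.57 and -0.12. In Ndufa4 (adjusted p = 0.04298) the differences were 0.26, -0.46 and 0.63, in Ndufa3 (adjusted p = 0.04316) -0.27, -0.17 and 0.36, and in Cox6a1 (adjusted p = 0.04417) -0.21, -0.11 and 0.20. mt-Cytb and mt-Nd5 passed the test under each alternative fit that kept all mice, Ndufa4, Ndufa3 and Cox6a1 were each lost under some of these, and 0 members passed it with replicate 1 or replicate 2 left out of every group.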

How the results depend on the processing

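Counts of members past the test stayed within 1.5 times the main count in all comparisons with the control and all time steps under the alternative fits and with each mouse left out. Leaving out single mice gave 58 to 62 and 68 to 69 and 66 to 70 members at 4, 12 and 24 h after 0.8 µg against control (60, 70 and 71 in the main fit), and 56 to 62, 66 to 69 and 71 to 75 after 80 µg (62, 68 and 76). For the time steps it gave 51 to 55 and 26 to 35 after 0.8 µg (58 and 33) and 52 to 57 and 29 to 35 after 80 µg (59 and 35). With the study's 2-fold threshold the counts became 26, 39, 24 and 48 for 0.8 µg at 4 and 24 h and 80 µg at 4 and 24 h against control, 10 for each step from 4 to 12 h, 4 for each step from 12 to 24 h, and 0 for the dose at each time. The dose count at 4 h was 3, and it became 1 with edgeR, 1 with TMM factors, 1 with the replicate block, 5 with nuclear totals without Gm42418, 5 with the 6 samples compared and 0 to 3 with a mouse left out (1 without 80 µg replicate 2). At 12 h it was 6, and 4 to 9 with a mouse left out. At 24 h it was 0, and 1 with the 6 samples compared and 0 to 1 with a mouse left out (1 without 0.8 µg replicate 1). The interaction count of 5 became 3 with edgeR, 3 with the stricter filter of 10 counts in 3 samples, 3 with the replicate block, and 0 to 4 with a replicate number left out. The log2 difference in the mitochondrial to nuclear ratio at 12 h was -0.53 with medians over members. The cause was not tested.

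Size factors mattered most for small changes. Library totals moved the median of all genes by as much as -0.23 (log2), and nuclear totals without Gm42418 by as much as -0.26. With nuclear totals without Gm42418, the 80 µg 4 h changes of mt-Nd1 (-0.003682), mt-Nd2 (-0.08999) and mt-Nd5 (-0.03196) reversed, as did mt-Nd4 at 24 h after 80 µg with library totals (-0.003328). That scaling gave 40 nuclear members higher and 12 lower at 4 h after 0.8 µg, and 39 and 15 after 80 µg, and mitochondrial members 1 higher and 2 lower, and 0 and 3. For 12 to 24 h it gave 15 and 17 after 80 µg, edgeR 11 and 25, the 6 samples compared 14 and 24, and library totals after 0.8 µg 5 and 30. Of 7280 values for 40 named members, 6964 kept their side of the threshold, 212 lost and 100 gained the call, and 4 were the reversals given above. Direction was compared only for values past the test in the main fit.

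Replicate numbers were not used as a pairing in the main fit. Deviations of same-numbered mice correlated at -0.252 to 0.252, over 0.1 in 12 of 39 pairs, and 8 of 21 mice correlated best with their own number. Pairs within and between the 4 h and 12 h groups ran from -0.076 to 0.252, most of them positive, and pairs with the control from -0.252 to 0.173. Whether same-numbered mice shared a sort is not given in the sources used here. In the other comparisons the replicate block gave counts of 31 to 75 against control and between times. Members with few counts, 3′ priming, copies and unknown strand use limit single genes.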
